A study of Rattus norvegicus with 23 samples.

Results

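The transforming growth factor beta (TGF-beta) system was followed through 9 genes among the 32552 gene identifiers counted in rat heart and kidney. They were chosen by name: the ligands Tgfb1, Tgfb2 and Tgfb3, the latent TGF-beta binding proteins Ltbp1 and Ltbp2, the receptors Tgfbr1 and Tgfbr2, the signal transducer Smad3 and the inhibitor Smad7. All 9 passed the filter on low counts in both organs, and the lowest count of any of them in a library was 16. In the kidney, Tgfb1 rose 2.33-fold after nephrectomy with a fistula, and in the heart Tgfb3 rose by 0.59 on the log2 scale and Ltbp2 rose 3.40-fold. The heart calls did not hold when a measure of library composition was added to the fit, which then called few genes of any kind. The remaining members did not pass the main edgeR test in any comparison between operations within an organ. Some of these results depended on the fit. For AVF+NX against Sham, the authors' deposited results also call Tgfb3, Ltbp2 and Tgfbr1 in kidney, and Tgfb2 and Smad7 in heart. They call 4403 of 14175 genes in kidney and 5360 of 13283 in heart.

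The rats were Sprague-Dawley animals aged 13 weeks, and tissue was taken 4 weeks after surgery. Sham animals had sham surgery, NX animals a 5/6th partial nephrectomy, which leaves the animal with little kidney tissue, and AVF+NX animals the same nephrectomy plus an arteriovenous fistula joining the jugular vein end-to-side to the carotid artery. Heart Sham had 3 libraries and each of the other 5 groups had 4, which makes 23. There was no group with a fistula alone, so the fistula can be read only on top of nephrectomy.

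TGF-beta ligands are secreted in a latent form, held by their own propeptide and tethered to the matrix by latent TGF-beta binding proteins until integrins or proteases release them. The freed ligand binds the type II receptor, which recruits and phosphorylates the type I receptor. That receptor phosphorylates SMAD2 and SMAD3, which enter the nucleus with SMAD4 and switch on matrix genes, while SMAD7 is induced as a feedback inhibitor. In heart and kidney the pathway is best known for its role in fibrosis.

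Total counts per library ran from 9069354 to 48079431, and the heart groups differed in depth (9894716 to 11866042 in Sham, 11889483 to 48079431 in AVF+NX). The labelled organs carried their own markers: 8 cardiomyocyte genes summed to 53369 to 65277 CPM (counts scaled to the library total) in sham heart and 18.0 to 24.4 CPM in sham kidney, where Myl2 was at 0. The 9 tubule genes summed to 22413 to 24714 CPM in sham kidney and 5.30 to 6.42 CPM in sham heart. Heart libraries also differed in small structured RNAs, species that poly(A) selection mostly removes. An index of 63 such genes (mean log2 CPM, centred) lay between 0.79 and 0.84 in Sham and between -0.89 and -0.28 in AVF+NX. NX was split, with libraries 1 and 4 at 1.00 and 0.67 and libraries 2 and 3 at -1.02 and -0.62. In the heart the index therefore cannot be told apart from AVF+NX surgery when set against Sham. In whole tissue, fewer cells of a type and less RNA per cell cannot be told apart either. Kidney fits used a separate index of 90 such genes. It lay between -0.10 and 0.01 in Sham, -0.25 and 0.004 in NX, and -0.18 and 0.41 in AVF+NX, so it partly followed the groups. Fits of both organs used the index taken within each organ.

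Levels were compared between genes as TPM, the transcript abundance corrected for exon length and depth. Tgfbr2, the type II receptor that binds the ligand, had the highest mean TPM in each of the 6 groups, from 53.2 ± 0.77 (SD, n = 3) in sham heart to 129 ± 26.6 (n = 4) in AVF+NX kidney. These TPM values were not scaled between organs. With both organs scaled together, mean Tgfbr2 was 123 CPM in sham heart and 129 CPM in sham kidney, a difference that was not called. Ltbp2, a matrix protein related to the ligand carriers, had the lowest mean in each group, from 0.48 ± 0.17 TPM (n = 3) in sham heart to 6.66 ± 2.14 TPM (n = 4) in AVF+NX kidney. In sham heart the order of mean TPM below Tgfbr2 was Tgfb1 (26.7), Tgfb3 (20.7), Smad7 (16.8), Ltbp1 (12.6) and Smad3 (9.70), neighbours whose libraries overlapped. Tgfb2 (4.48), Tgfbr1 (2.63) and Ltbp2 followed, each clear of the gene above. In sham kidney Smad7 (35.1), Tgfb1 (33.98), Smad3 (29.8) and Ltbp1 (26.0) overlapped in turn, and Tgfbr1 (12.6) stood below them. Tgfb2 (9.19) and Tgfb3 (7.43) came next and overlapped. In AVF+NX kidney Tgfb1 (83.2 TPM) moved up to overlap Tgfbr2, and in AVF+NX heart Tgfb3 (32.7 TPM) stood above Tgfb1 (24.2 TPM) in the mean with overlapping libraries.

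**Figure D1:**
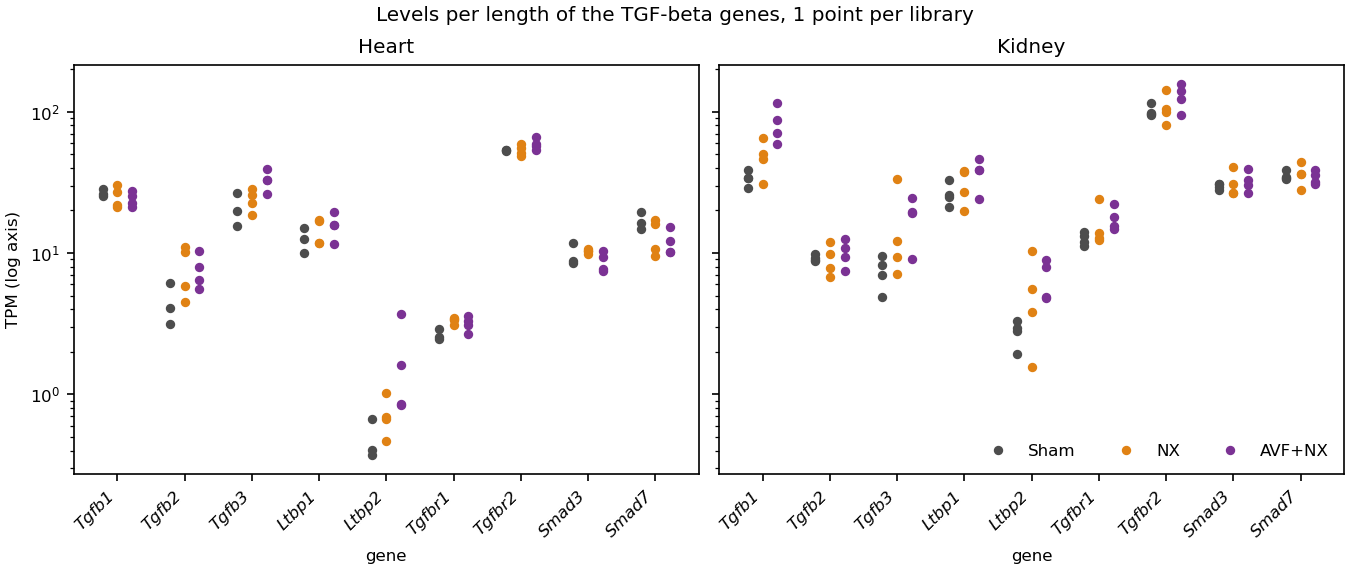
TPM on a log axis for the 9 genes, 1 point per library, coloured by operation, heart at left and kidney at right. Tgfbr2 has the highest group means and Ltbp2 the lowest in both organs, and the ligand with the highest sham mean is Tgfb1 in both.

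The stretch just before the start of transcription is shown for the genes whose levels rose, because SMAD3 binds DNA at the short motif CAGAC. The sequences are the 250 bases upstream of the RefSeq start in the build GRCr8, read 5′ to 3′ on the gene's strand, with CAGAC or its reverse complement GTCTG in capitals. In the coordinates of the count files, whose build the sources do not name, the genes span 82480195 to 82497199 on chromosome 1 (Tgfb1), 109913757 to 109935533 on chromosome 6 (Tgfb3) and 108500112 to 108596569 on chromosome 6 (Ltbp2). In GRCr8, the window of Tgfb1 lies on the plus strand (chr1:90324062-90324311), and Tgfb3 (chr6:111456947-111457196) and Ltbp2 (chr6:110257299-110257548) lie on the minus strand.
Tgfb1: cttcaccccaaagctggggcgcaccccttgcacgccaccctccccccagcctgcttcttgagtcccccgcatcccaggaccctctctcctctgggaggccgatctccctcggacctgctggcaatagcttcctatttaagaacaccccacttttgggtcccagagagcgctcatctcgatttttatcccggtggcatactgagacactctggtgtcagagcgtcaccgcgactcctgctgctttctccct
Tgfb3: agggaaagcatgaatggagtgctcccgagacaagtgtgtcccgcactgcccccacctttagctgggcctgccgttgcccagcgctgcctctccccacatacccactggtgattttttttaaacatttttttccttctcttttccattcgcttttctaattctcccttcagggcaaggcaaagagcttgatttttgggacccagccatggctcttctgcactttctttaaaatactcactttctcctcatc
Ltbp2: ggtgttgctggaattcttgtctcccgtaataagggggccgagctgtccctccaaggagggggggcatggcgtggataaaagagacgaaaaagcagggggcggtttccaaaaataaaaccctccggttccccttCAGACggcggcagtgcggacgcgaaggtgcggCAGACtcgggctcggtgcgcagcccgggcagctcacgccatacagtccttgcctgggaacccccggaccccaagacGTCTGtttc
Ltbp2 carried 3 matches, beginning 117, 85 and 9 bases before the start, and Ltbp1 carried 1, at 99 bases. The windows of the other 7 members held none. Of 33469 windows of this length in the RefSeq table, 42.9% held at least 1 match on either strand, against 2 of the 9 members. The palindrome GTCTAGAC was in no member and in 0.173% of windows. A match is a string of letters in this window and says nothing of binding.

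In the kidney after AVF+NX, Tgfb1, the ligand most often tied to fibrosis, more than doubled. The Sham libraries held 46.3, 42.4, 36.8 and 43.8 CPM, and the AVF+NX libraries 129, 85.7, 75.7 and 104 CPM. Every AVF+NX library lay above every Sham library, and the log2 fold change was 1.22 (SE 0.18, adjusted p = 0.000458, edgeR quasi-likelihood test). It was called in 8 of 8 fits that left out 1 library, with log2 fold changes from 1.07 to 1.34. Tgfb1 was the only one of the 9 members called, where 25.1% of all 14322 genes tested were called, 15.9% higher and 9.18% lower. The members' median log2 fold change was 0.42, beside -0.01 over all genes tested. A fit of these 2 groups alone called 4 members, Tgfb1, Tgfb3, Ltbp2 and Tgfbr1, and 26.8% of genes.

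Macrophages and lymphocytes make TGF-beta1, and their markers moved with it. The 9 macrophage genes summed to 306 to 393 CPM in Sham, 367 to 1181 CPM in NX and 1101 to 2389 CPM in AVF+NX, and 9 of 9 were called higher in AVF+NX against Sham. Lymphocyte genes went from 26.9 to 32.6 CPM in Sham to 140 to 240 CPM in AVF+NX, with 8 of 8 called higher and Ms4a1 at 0 in Sham. Fibroblast genes were called higher in 7 of 8 and tubule genes lower in 6 of 9. What part these cells have in the Tgfb1 difference was not tested.

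The other kidney ligands did not pass the test. Tgfb3, the isoform known for its role in palate development, had 12.1, 14.6, 7.60 and 11.0 CPM in Sham and 33.6, 29.1, 14.1 and 28.0 CPM in AVF+NX. In AVF+NX, 3 of 4 libraries lay above all Sham libraries and the fourth, library 3, lay among them (log2 fold change 1.21, SE 0.47, adjusted p = 0.0803). Without that library Tgfb3 was called. Tgfb2 was level, at 23.1 ± 1.35 CPM in Sham and 24.0 ± 3.92 CPM in AVF+NX (SD, n = 4 each).

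Ltbp2, the relative of the ligand carriers, had 7.23, 10.9, 13.0 and 11.9 CPM in kidney Sham and 28.0, 18.3, 19.5 and 33.6 CPM in AVF+NX. The groups did not overlap, but the log2 fold change of 1.20 (SE 0.43) had an adjusted p of 0.0625 in edgeR. Ltbp1, which carries the latent ligand into the matrix, went from 94.3 ± 15.2 to 128 ± 29.5 CPM (adjusted p = 0.110). Neither receptor passed the test. Tgfbr1, the signalling type I receptor, had 36.6, 45.1, 48.5 and 41.9 CPM in Sham and 68.2, 48.8, 54.8 and 58.7 CPM in AVF+NX, groups that just failed to overlap (log2 fold change 0.42, adjusted p = 0.0668). Tgfbr2 went from 164 ± 11.4 to 200 ± 31.4 CPM (adjusted p = 0.105). Separation of all libraries upward, seen in Tgfb1, Ltbp2 and Tgfbr1, was found in 16.4% of all genes tested.

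Smad3 and Smad7 differed by less than the spread between replicates. Smad3 was at 87.4 ± 3.35 CPM in Sham and 90.6 ± 10.4 CPM in AVF+NX, a log2 difference of 0.05 with an interval of 2 SE from -0.13 to 0.23. Smad7, the feedback inhibitor, was at 87.9 ± 6.53 and 82.4 ± 5.94 CPM, a log2 difference of -0.09 with an interval from -0.31 to 0.12. The authors' deposited table for this comparison calls Tgfb1, Tgfb3, Ltbp2 and Tgfbr1 at an adjusted p below 0.05, and 4403 of its 14175 genes.

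**Figure D2:**
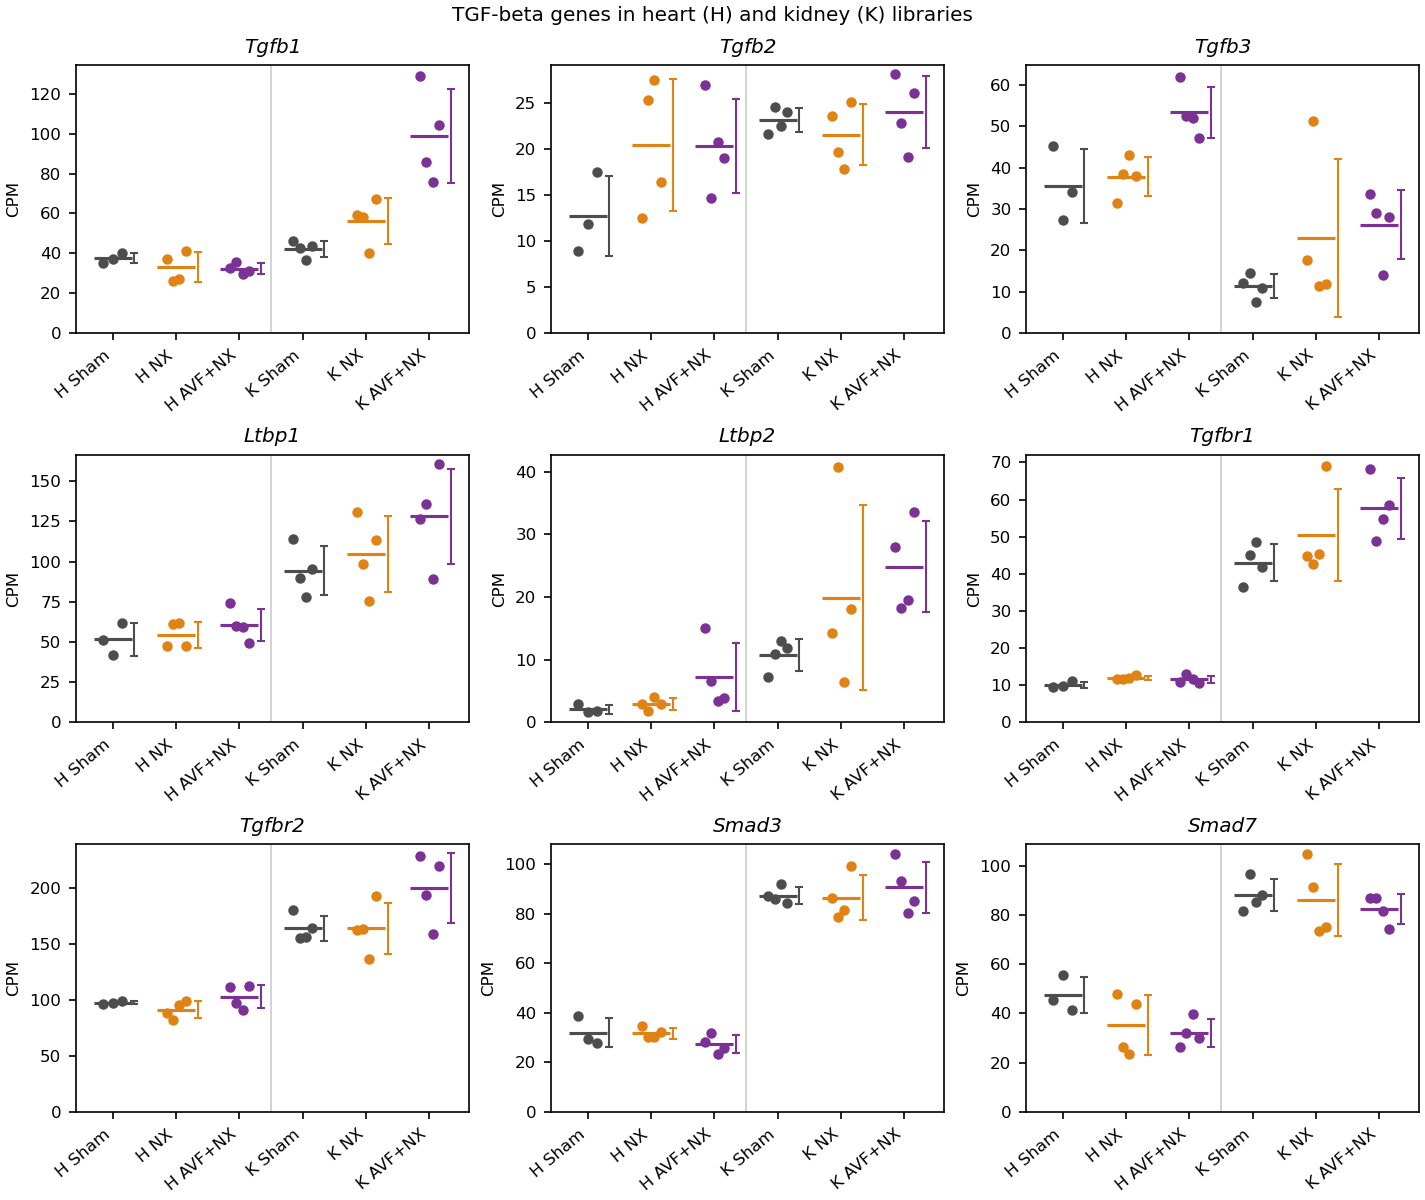
CPM of each gene in every library (points), with the group mean (line) and SD (bar at right), heart (H) left of the grey line and kidney (K) right of it. The AVF+NX kidney libraries of Tgfb1 sit at 75.7 to 129 CPM, above all other kidney libraries.

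After nephrectomy alone, no member was called in the kidney, where 1.31% of all genes were and 0.859% were called higher. Tgfb1 had 59.3, 58.2, 40.3 and 67.5 CPM, 3 of 4 libraries above all Sham libraries (a log2 difference of 0.42 with an adjusted p of 0.245). Tgfb3 and Ltbp2 were high in NX library 2, at 51.4 and 40.8 CPM. The other NX libraries held 11.3 to 17.6 CPM of Tgfb3 and 14.3, 6.44 and 18.1 CPM of Ltbp2. For both genes these values ran past the highest Sham library, and the Ltbp2 value of 6.44 CPM lay below the lowest. At an unadjusted p below 0.05 there was 1 member, beside 17.4% of genes. DESeq2 and limma voom called 0 members, and 5.83% and 3.97% of genes. This comparison and the previous one share the Sham libraries.

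Adding the fistula to nephrectomy raised Tgfb1 in the kidney, 1.75-fold over NX (log2 fold change 0.81, SE 0.17, adjusted p = 0.0194). All 4 AVF+NX libraries lay above the highest NX library of 67.5 CPM. It was the only member called, where 6.07% of all genes were called and 4.87% were called higher, and no other member's groups were apart, against 7.49% of genes separated upward. The call was lost without AVF+NX library 1 (0.65, adjusted p = 0.0540) and without AVF+NX library 4 (0.78, adjusted p = 0.0507). It was also lost in a fit of these 2 groups alone, at 0.80 with an adjusted p of 0.0736, and with the small structured RNA index as a term, at 0.84 with an adjusted p of 0.146. Those 2 fits called 1.89% and 0.0978% of all genes. Macrophage genes were called higher in 6 of 9 here. Of the members, the authors' deposited table for this comparison calls Tgfb1, and it calls 1123 of its 14290 genes.

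In the heart, Tgfb1 did not follow the kidney. Its Sham libraries held 35.3, 37.2 and 40.1 CPM and its AVF+NX libraries 32.8, 35.6, 29.5 and 31.3 CPM (log2 fold change -0.21, SE 0.15, adjusted p = 0.269). Tested in 1 fit of all 23 libraries, the heart effect of AVF+NX against Sham minus the kidney effect was -1.35 on the log2 scale (SE 0.23, adjusted p = 0.000449). This was the only member called, where 27.9% of all 15222 genes were and 14.6% were lower, and 15 of 15 fits leaving out 1 library kept the call. With the small structured RNA index in the fit it was -0.95 (adjusted p = 0.0755), in a fit that called 2.25% of genes. For AVF+NX against NX the same difference was -0.79 (adjusted p = 0.0762), and for NX against Sham it was -0.56 (adjusted p = 0.232). In those 2 tests no member was called, where 1.12% and 0.158% of all genes were, by edgeR. At an unadjusted p below 0.05 there were 1 and 2 members, beside 17.4% and 16.6% of genes. In the first, DESeq2 called 1 member, Tgfb1, and 4.43% of genes, 264 higher and 397 lower. In the second, limma voom called 2 members, Tgfb1 and Tgfb2, and 11.6% of genes, 868 higher and 895 lower.

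In the heart, the members called after AVF+NX against Sham were Tgfb3 and Ltbp2. Neither was called in the test of the organ difference, which was -0.53 for Tgfb3 (adjusted p = 0.494) and 0.65 for Ltbp2 (adjusted p = 0.558), heart minus kidney on the log2 scale. Tgfb3 had 45.1, 27.3 and 34.1 CPM in Sham and 61.9, 52.4, 51.9 and 47.2 CPM in AVF+NX, with no overlap (log2 fold change 0.59, SE 0.16, adjusted p = 0.0126). Ltbp2 had 2.93, 1.66 and 1.77 CPM in Sham and 15.1, 6.57, 3.43 and 3.92 CPM in AVF+NX (log2 fold change 1.77, SE 0.53, adjusted p = 0.0239). AVF+NX library 1 held the most, and without it the log2 fold change was 1.14 (adjusted p = 0.0313). These 2 of 9 members were called, against 34.1% of all 12794 genes tested, with 15.4% higher and 18.6% lower, and the members' median log2 fold change was 0.20 beside 0.01 over all genes.

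Neither heart call held in every fit. Tgfb3 was lost without Sham library 2 (0.44, adjusted p = 0.0576), and Ltbp2 without Sham library 2 or 3 (adjusted p = 0.0806 and 0.0818). Ltbp2 was also lost with no count filter (0.0648), in a fit of the 2 groups alone (0.0765) and in limma voom (0.0591), all as adjusted p. With the small structured RNA index as a term, Tgfb3 stood at 0.47 (adjusted p = 0.286) and Ltbp2 at 2.46 (adjusted p = 0.141). With depth, as the log2 total, as a term they stood at 0.41 (adjusted p = 0.317) and 1.81 (adjusted p = 0.285). The fit with the index called 0.453% of all genes, and that with depth 0.0156%. Fibroblast genes summed to 488 to 562 CPM in Sham and 608 to 855 CPM in AVF+NX, with 4 of 8 called higher. Endothelial genes went from 632 to 713 CPM to 824 to 992 CPM, with 5 of 8 called higher, and macrophage genes from 233 to 247 CPM to 327 to 410 CPM, with 3 of 9 called higher and 1 lower. The part of these cells was not tested.

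Smad7 was the member with the lowest heart fold change. It had 45.5, 55.5 and 41.4 CPM in Sham and 26.2, 32.1, 39.9 and 30.1 CPM in AVF+NX, with every AVF+NX library below every Sham library, as in 24.6% of all genes. Tgfb3 and Ltbp2 lay wholly above Sham, as 22.8% of all genes did. The change of -0.56 (log2, SE 0.23) had an adjusted p of 0.0792, and with the index as a term it was 0.03. Tgfb2 had 8.88, 11.8 and 17.5 CPM in Sham and 27.0, 14.7, 20.8 and 19.0 CPM in AVF+NX (log2 fold change 0.68, adjusted p = 0.103). Ltbp1, Tgfbr1, Tgfbr2 and Smad3 had log2 fold changes between -0.23 and 0.24, each with an adjusted p above the threshold. The authors' deposited table for this comparison calls Tgfb2, Tgfb3, Ltbp2 and Smad7, and 5360 of its 13283 genes.

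**Figure D3:**
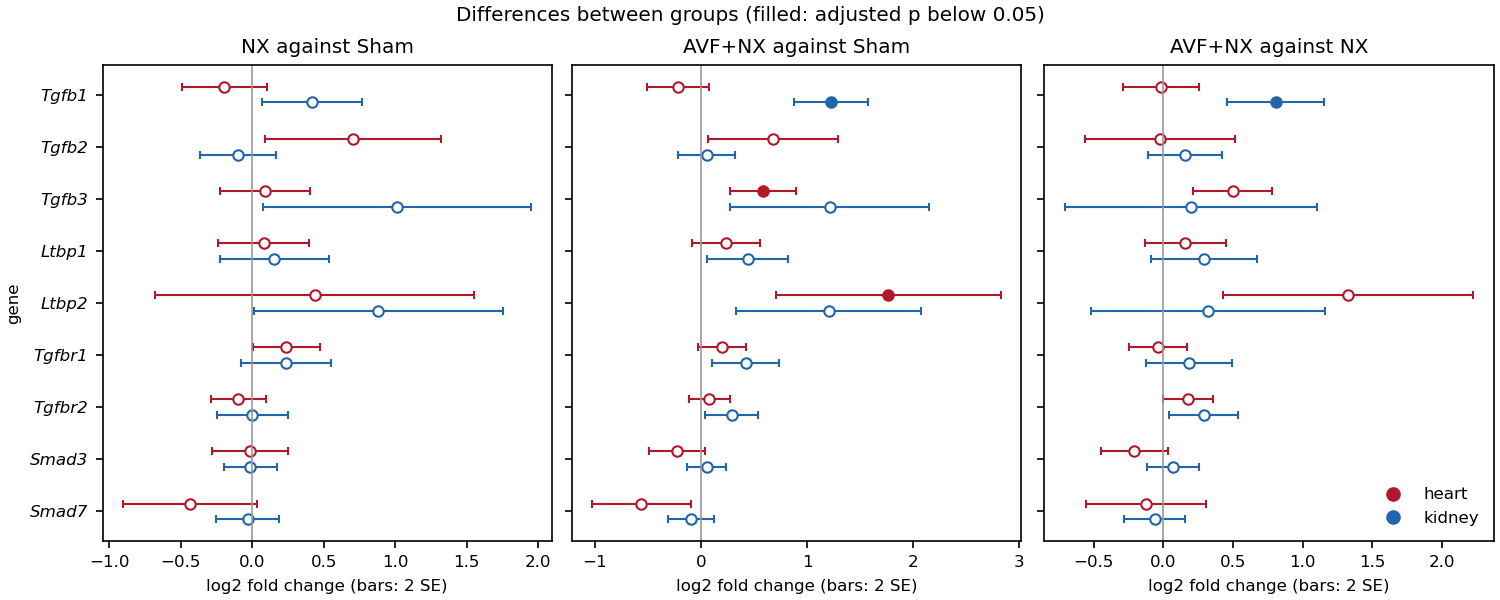
log2 fold change of each gene (points) with bars of 2 SE, heart in red and kidney in blue, for the 3 comparisons within each organ. Filled points passed the test: Tgfb1 in kidney at 1.22 and 0.81, and Tgfb3 and Ltbp2 in heart at 0.59 and 1.77.

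After nephrectomy alone no heart member was called, and neither was any of the 12794 genes (0.0%), with 2662 genes and 1 member at an unadjusted p below 0.05. Those genes were 20.8% of the total. DESeq2 called 176 genes higher and 168 lower (3.26%) and no member. limma voom called 765 genes higher and 1505 lower (17.7%), and 1 member, Smad7. Tgfbr1 was the 1 member whose NX libraries (11.6 to 12.7 CPM) all lay above Sham (9.45 to 11.1 CPM), as 6.92% of all genes did. Within NX, Tgfb1 held 37.2 and 41.4 CPM in libraries 1 and 4 and 26.1 and 27.2 CPM in libraries 2 and 3. Smad7 held 47.8 and 44.0 CPM in the first pair and 26.5 and 23.7 CPM in the second, the same division as the small structured RNA index. Against Sham, libraries 1 and 4 alone gave log2 fold changes of 0.08 for Tgfb1 and -0.04 for Smad7. That pair was chosen after the index was seen, and its values for both genes already lay near Sham. The split is therefore a description and tests neither the index nor nephrectomy.

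In AVF+NX against NX in the heart, no member was called either, where 0.336% of genes were. At an unadjusted p below 0.05 there were 2 members, beside 2752 genes (21.5%). DESeq2 called 2 members, Tgfb3 and Ltbp2, and 6.69% of genes, 314 higher and 509 lower. Tgfb3 came closest at 0.50 on the log2 scale (SE 0.14, adjusted p = 0.0977) and no overlap between groups, which 4.96% of all genes showed in this direction. Set only against NX libraries 2 and 3, which lie on the AVF+NX side of the index, the Tgfb3 difference was 0.38 (adjusted p = 0.353). This pair too was chosen after the data were seen. Ltbp2 was at 1.33 (adjusted p = 0.139). Of the members, the authors' deposited table for this comparison calls Tgfb3, and it calls 451 of its 13266 genes.

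**Figure D4:**
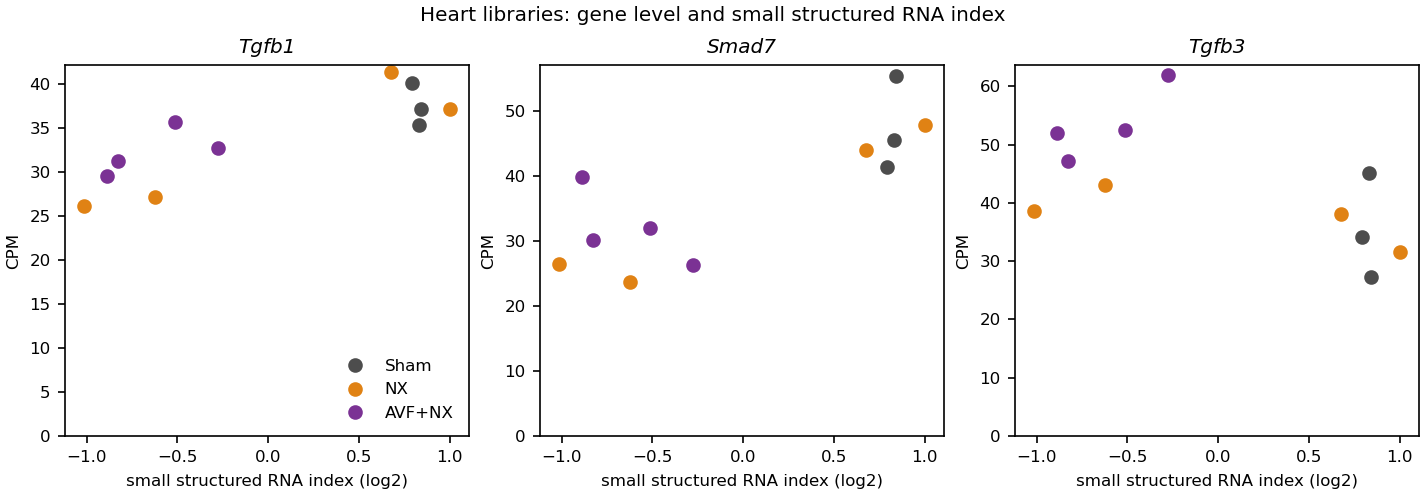
CPM of Tgfb1, Smad7 and Tgfb3 in the 11 heart libraries against the small structured RNA index (log2 scale, centred), coloured by operation. NX libraries 2 and 3 lie with AVF+NX at the low end, and NX libraries 1 and 4 with Sham at the high end.

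Sham heart and sham kidney differed in 5 of the 9 members, against 71.2% of all 15222 genes (33.2% higher in heart, 37.9% lower). Tgfb3 was higher in heart by 2.34 on the log2 scale (SE 0.40, adjusted p = 2.88e-05). Lower in heart were Tgfbr1 at -1.40 (adjusted p = 3.58e-08), Smad3 at -0.76 (adjusted p = 5.77e-06) and Ltbp2 at -1.64 (adjusted p = 0.0186). The Ltbp2 call was lost without heart Sham library 2 (adjusted p = 0.0640), without heart Sham library 3 (adjusted p = 0.0652) and in limma voom (adjusted p = 0.0547), and that of Tgfb1 with the small structured RNA index as a term (adjusted p = 0.153). Tgfb1 was called higher in heart (0.51, adjusted p = 0.0105), but its direction depended on how the libraries were scaled. It was at 47.5 CPM in heart and 33.4 CPM in kidney when both organs were scaled together, and at 26.7 and 33.98 TPM, respectively. Its own exon length of 2140 bases was the same in both organs, and what sets the direction was not tested. All genes tested had a median of -0.11 in this comparison.

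Around the members, genes known to respond to TGF-beta were higher in AVF+NX kidney. Of 33 such targets, 23 rose and 1 fell against Sham, with a median log2 fold change of 1.68. Of all genes tested, 15.9% were called higher and 9.18% lower. This list and those below were chosen with earlier results of these data known, so the counts are no independent test of TGF-beta signalling. Fibroblast genes were called higher in 7 of 8 in this comparison, and the part of cell composition in the target counts was not tested. Col1a1, the main chain of type I collagen, went from 153 ± 29.6 to 2067 ± 640 CPM (SD, n = 4 each; adjusted p = 8.75e-05), and Col3a1, of type III collagen, from 182 ± 30.8 to 1959 ± 683 CPM. Vim, an intermediate filament of mesenchymal cells, rose by 1.67 on the log2 scale. Postn, a matricellular protein of activated fibroblasts, went from 0.27 ± 0.37 to 93.4 ± 56.5 CPM. The gene that fell was Nox4, an oxidase abundant in tubules, at -1.15, named after its value was seen. Between 21 and 27 targets were higher when each library was left out in turn.

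After nephrectomy alone 4 of the 33 targets rose in the kidney, beside 0.859% of all genes. They were Col1a1 (2.19), Col3a1 (2.03) and the cell cycle inhibitors Cdkn1a (1.48) and Cdkn2b (2.80), as log2 fold changes. Adding the fistula raised 6 over NX, among them Tgfbi (1.08), Postn (3.55), Timp1 (1.33) and Vim (1.02), beside 4.87% of all genes. That count of targets was 11 without NX library 2 and 16 without AVF+NX library 3, fits whose shares of all genes are not given here. It was 2 in a fit of the 2 groups alone, which called 1.89% of all genes in either direction.

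Genes for storing and freeing the ligand moved both ways in AVF+NX kidney, with 6 of 17 higher and 2 lower against Sham. Thbs2, a thrombospondin, rose by 3.16, Nrros, which holds latent TGF-beta1 on macrophages and microglia, by 1.39, Fbn1, the microfibril protein, by 1.51, and Emilin1 by 0.82 on the log2 scale. Among other ligands of the family and their binding proteins 8 of 23 rose and 2 fell. Inhba and Inhbb, the activin subunits, rose by 2.96 and 1.61, and Fstl1 by 0.89, while Bmp4 fell by 0.67. Of 18 other SMADs and regulators 3 rose and 2 fell, near the shares of all genes called (15.9% higher and 9.18% lower), and their median was -0.01, as over all genes. Tgif1, a corepressor of SMADs, rose by 1.08 and Smad1 by 0.55, and Nedd4l and Zfyve9 fell by 0.37 and 0.39. None of 11 other receptors rose, and 1 fell, the pseudoreceptor Bambi, at -0.34. Of 7 BMP targets only Id4 was called, at -0.56.

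In AVF+NX heart, 10 of 30 targets rose and 2 fell against Sham, with a median of 0.52, where 15.4% of all genes rose and 18.6% fell. Lox, which crosslinks collagen, rose by 1.29, Tnc, a matrix protein of injured tissue, by 2.32, Fn1 by 1.08 and Bgn by 0.82 on the log2 scale. The 2 that fell, named after their values were seen, were Snai1 (-1.36) and Junb (-1.29). Of 16 latency genes 5 rose and 2 fell, with Adamtsl2 at 2.08, Fbn1 at 1.31, Itgb1 at 0.43 and Emilin1 at -1.28. Of 10 other receptors Bmpr2 (0.41) and Acvr1 (0.33) rose and Acvr2b (-1.69) fell, and of 18 SMADs and regulators 4 rose, Smurf2, Usp15, Smad2 and Smad4, by 0.39 to 0.48, and the inhibitor Smad6 fell by 0.86 on the log2 scale. Among 17 other ligands and binding proteins 4 rose, including Fstl1 (0.96) and Dcn (0.67), and 2 fell, including Gdf11 (-0.74). With the index or the total count as a term, none of the 30 targets was called in the heart, in fits that called 58 and 2 of all 12794 genes.

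**Figure D5:**
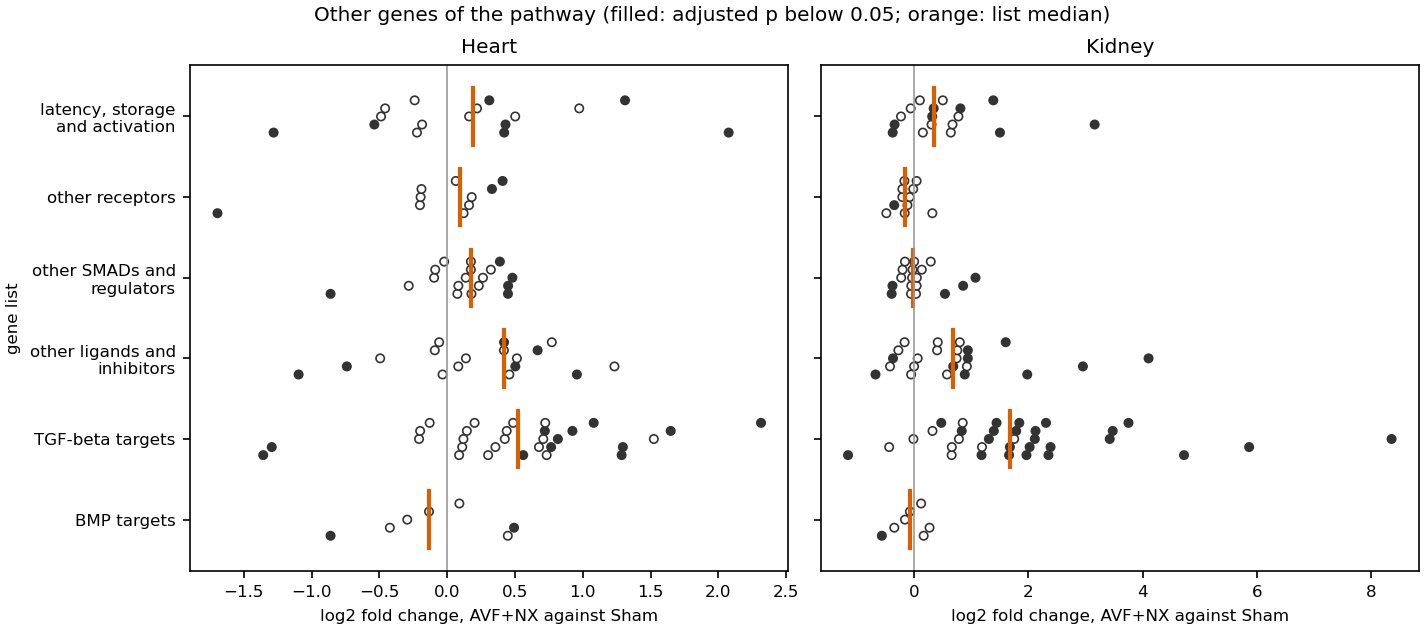
log2 fold change of each tested gene in 6 pathway lists, AVF+NX against Sham, heart left and kidney right, on different axes. Filled points passed the test and the orange line is the list median, which for targets lies at 0.52 in heart and 1.68 in kidney.

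The genes whose profile was most like each called member were found by the mean absolute difference of centred log2 CPM over the libraries of an organ. For Tgfb1 over 12 kidney libraries they were Lrrc8c (0.06), Cnn2 (0.09) and Vsir (0.10). For Tgfb3 over 11 heart libraries they were Ubxn2b (0.09), Olfml2b (0.10) and Serping1 (0.11), and for Ltbp2 Col8a1 (0.24), Fibin (0.29) and Pi16 (0.30).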

How the data were processed

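RNA was poly(A)-selected and made into strand-specific libraries, per the labels' protocols. The authors deposited whole-number read counts per gene with an exon length column in bases, a unit of its own (per the file headers). The submitters' processing notes list STAR 2.5.2b, Trimmomatic 0.36, Subread 1.5.2 and featureCounts with no role. Neither the build nor the strand setting of the counting is given in the sources used here. The authors also deposited, for each comparison, log2 fold changes with p-values and a normalised signal per library. Symbols came from these tables, which pair 15123 of 32552 identifiers, and 175 of 191 list genes were matched.

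One fit per organ over 3 groups was made in edgeR 4.0.16 under R 4.3.3 with filterByExpr, TMM, robust quasi-likelihood test, Benjamini-Hochberg over all genes tested, called at an adjusted p below 0.05. SE is the absolute log2 difference over the square root of F. CPM uses the TMM-scaled total of the organ, and TPM uses counts and exon length. Organ differences were fitted over all 23 libraries. The script was tested on simulated data. The labels call replicates biological but tie no heart to a kidney. Up to 4 called genes with the smallest p were named per list (2 where none was called), at 1 CPM or more, and 3 most like genes per called member. Members and lists were chosen with earlier results of these data known. Alternatives were RLE factors, no filter, 2-group fits, the replicate block, DESeq2 1.42.0, limma 3.58.1 voom, 2 covariates and leaving out each library. Restricting heart NX to libraries 1 and 4 or to 2 and 3 was chosen after seeing the data.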

Additional observations from a re-analysis of the deposited data

Results flagged for a closer look

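Tgfb3 in kidney NX library 2 stood at 51.4 CPM, far above the other 3 NX libraries, and Tgfbr1 in kidney NX library 4 stood at 69.1 CPM in the same way. These were 2 of 45 groups of 4 libraries examined for a library apart from the rest, and chance gives about 1 in 20. Kidney NX library 4 also differed as a library, with 18782085 counts, 4.15% of them mitochondrial. The other kidney NX libraries held 9360065 to 9458673 counts, with 9.37% to 9.63% mitochondrial. The part of this in the Tgfbr1 value was not tested. Tgfb1 differed between the organs in its response to AVF+NX, by a tested difference of -1.35 on the log2 scale (heart minus kidney, edgeR adjusted p = 0.000449).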

How the results depend on the processing

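The count of members called was recomputed under every alternative. In heart AVF+NX against Sham (2 called) it was 1 with no count filter, 0 with log2 total count or the small structured RNA index as a term, and 0 to 2 when 1 library was left out. In kidney AVF+NX against Sham (1 called) it was 4 in the 2-group fit, 4 with the replicate block, 3 in DESeq2, 4 in limma voom and 2 with total count as a term, and 1 to 4 with a library left out, 4 without AVF+NX library 3. The main fit called 25.1% of all genes here and the 2-group fit 26.8%. Where the share of all genes called in a fit is not given, a count of members is not read as a result about them. In kidney AVF+NX against NX (1 called) it was 0 in the 2-group fit, 2 with total count, 0 with the index, and 0 to 2 with a library left out. In heart NX against Sham (0 called) limma voom gave 1, Smad7, and in heart AVF+NX against NX (0 called) DESeq2 gave 2. For the organ difference limma voom gave 2 for NX against Sham. The index gave 0 for AVF+NX against Sham (1 called), and leaving out a library 1 to 2. For AVF+NX against NX (0 called) the block and DESeq2 each gave 1, and leaving out a library 0 to 1. The causes were not tested. The replicate numbers were not taken as pairing, which would need every same-numbered pair to correlate above 0.1 after removal of group means. Same-numbered libraries correlated from -0.12 to 0.12 in heart (median -0.01, and 0.01 for other pairs) and from -0.07 to 0.38 in kidney (median 0.17, and -0.01 for other pairs). As a hint from the data, 8 of 12 kidney libraries and 1 of 11 heart libraries correlated best with one of their own number. A pairing in the kidney was therefore not excluded. In kidney AVF+NX against Sham the block moved the count of members called from 1 to 4. The share of all genes called with the block is not given here, so that move is not read as a hint of pairing.

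Of 1593 values of single members under alternatives, 103 changed sign, over 33 of 90 results, and 0 of them were called. They are given as log2 fold changes. With the small structured RNA index as a term the values were Tgfb1 0.043, Ltbp1 -0.050, Smad3 0.087 in Heart NX against Sham, Tgfb1 0.24, Smad7 0.029 in Heart AVF+NX against Sham, Tgfb1 0.19, Smad7 0.18 in Heart AVF+NX against NX, Tgfbr2 -0.033 in Kidney NX against Sham, Ltbp2 0.022 in the organ difference of NX against Sham, Tgfb2 -0.017, Smad7 0.19 in the organ difference of AVF+NX against Sham, Smad7 0.33 in the organ difference of AVF+NX against NX and Tgfb2 0.20 in Sham Heart against Sham Kidney. With NX libraries 1 and 4 only the values were Tgfb1 0.077, Tgfb3 -0.024, Ltbp1 -0.12, Smad3 0.068 in Heart NX against Sham. With log2 total count as a term the values were Ltbp1 -0.0051 in Heart NX against Sham, Ltbp1 -0.050 in Heart AVF+NX against Sham, Tgfb1 0.13, Ltbp1 -0.045, Smad7 0.065 in Heart AVF+NX against NX, Tgfbr2 -0.0061 in Kidney NX against Sham, Tgfbr1 -0.024 in the organ difference of NX against Sham and Smad7 0.14 in the organ difference of AVF+NX against NX. With no count filter the values were Smad3 0.0028 in Heart NX against Sham, Ltbp1 0.0051 in the organ difference of NX against Sham and Smad7 0.028 in the organ difference of AVF+NX against NX. With the replicate block they were Smad3 0.0058 in Heart NX against Sham, Tgfb1 0.0015, Tgfb2 0.017 in Heart AVF+NX against NX, Tgfbr2 -0.0080 in Kidney NX against Sham and Ltbp1 6.9e-05 in the organ difference of NX against Sham. With limma voom they were Tgfb1 0.13, Tgfbr1 0.0022, Smad7 0.13 in Heart AVF+NX against NX, Tgfbr2 -0.026, Smad7 0.012 in Kidney NX against Sham, Ltbp1 0.090 in the organ difference of NX against Sham and Smad7 0.25 in the organ difference of AVF+NX against NX. With NX libraries 2 and 3 only they were Tgfb1 0.26, Ltbp1 -0.030, Smad7 0.34 in Heart AVF+NX against NX. With RLE factors it gave Tgfbr2 -0.012 in Kidney NX against Sham and Ltbp1 0.0069 in the organ difference of NX against Sham. With only the 2 groups compared it gave Tgfbr2 -0.0093 in Kidney NX against Sham. With DESeq2 it gave Tgfbr2 -0.012 in Kidney NX against Sham and Ltbp1 0.0065 in the organ difference of NX against Sham. The ranges when 1 library was left out, where a sign changed, were as follows. Heart NX against Sham gave Tgfb3 from -0.044 to 0.30, Ltbp1 from -0.030 to 0.25, Smad3 from -0.085 to 0.14. Heart AVF+NX against NX gave Tgfb1 from -0.12 to 0.11, Tgfb2 from -0.20 to 0.15, Smad7 from -0.28 to 0.051. Kidney NX against Sham gave Tgfbr2 from -0.087 to 0.078, Smad3 from -0.088 to 0.029, Smad7 from -0.14 to 0.036. Kidney AVF+NX against Sham gave Tgfb2 from -0.030 to 0.15, Smad3 from -0.020 to 0.11. Kidney AVF+NX against NX gave Tgfb3 from -0.033 to 0.95, Smad3 from -0.0070 to 0.14, Smad7 from -0.13 to 0.042. The organ difference of NX against Sham gave Ltbp1 from -0.14 to 0.14, Ltbp2 from -0.67 to 0.21, Tgfbr1 from -0.010 to 0.25, Tgfbr2 from -0.11 to 0.044, Smad3 from -0.042 to 0.22. The organ difference of AVF+NX against Sham gave Ltbp1 from -0.25 to 0.033. The organ difference of AVF+NX against NX gave Tgfb2 from -0.33 to 0.027, Tgfb3 from -0.43 to 0.56, Ltbp1 from -0.24 to 0.022, Smad7 from -0.16 to 0.14. Sham Heart against Sham Kidney gave Tgfb2 from -0.48 to 0.021. The causes of these changes were not tested.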
